A study of Mus musculus with 21 samples.

Results

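Histone genes were followed in poly-A RNA of the mouse hippocampus, in mice that had gone through maternal separation (MS) and in mice of standard rearing (SR). A gene was taken by its name, as a histone cluster gene (Hist1h, Hist2h, Hist3h or Hist4h in the older naming), an H1 gene outside the clusters, or one of H2afx, H2afz, H2afy, H2afv, H3f3a and H3f3b, and pseudogenes were left out. Of 77 such genes among the 55487 genes of the deposited table, 33 had at least 100 counts summed over all libraries and were kept. They comprised 25 clustered genes and 8 genes outside the clusters. The members were thus chosen by name and by their counts summed over all libraries, and the comparison of MS with SR did not enter the rule.

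Both groups were male wild-type C57BL/6 mice killed at 10 weeks of age. In the MS group (n = 9) the whole nest was kept apart from its dam for 4 hr on each day from postnatal day 10 to 17, and part of the nesting material was taken from the home cage. The SR group (n = 12) stayed with the dam. RNA of each hippocampus gave 1 library, with a total count of 17276810 to 30449055, and no treatment other than rearing separated the groups. Nests are not in the labels. Animal numbers ran in blocks of 3 that each held 1 condition, so a mouse is called here by the letter of its block and its place in it, with blocks A, B and C in MS and D, E, F and G in SR. The lower numbers (A, B, D, E, F) and the higher ones (C, G) lie in separate ranges. By the paper, each litter was balanced to hold 3 males, and litter mates of the same sex were later caged in 3s. A block may therefore be a nest, which the labels cannot settle.

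Library A2 of the MS group stood apart. On the first principal component of the 500 most variable genes it lay at 27.1, with the other 20 libraries between -12.2 and 11.9, and its summed dentate gyrus markers were at 160 CPM (a gene's counts scaled to the TMM-normalized library total) against 314 to 591 in the rest. The study left out an outlier without naming it, and A2 was assumed here to be that library, so comparisons are of 8 MS with 12 SR mice and A2 is given beside them. Markers of dentate granule cells and of CA pyramidal neurons were present in all 20 of these libraries.

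Histones package DNA. Pairs of H2A, H2B, H3 and H4 form the core of the nucleosome, and the linker histone H1 binds where the DNA enters and leaves it. Most histone protein is made during S phase from the clustered genes, whose mRNAs lack a poly-A tail and end instead in a stem-loop that is bound by Slbp. The genes outside the clusters encode replacement variants such as H2A.Z and H3.3 and the linker histones H1.0 and H1.10, have ordinary polyadenylated mRNAs, and serve chromatin in cells that do not divide, such as most cells of the adult hippocampus. A library made from poly-A RNA should therefore see a clustered gene mainly through those of its transcripts that carry a tail.

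The stem-loop could be read from the annotated transcripts, and it is shown because it is the feature that sets these mRNAs apart. A match was GGNNNTNTNNANNNCC on the transcript's strand, with all 6 stem positions paired and a pair of G with T allowed. The stem is given in capitals and the loop in lower case, 5′ to 3′, as DNA letters of GENCODE M21 transcripts (build GRCm38), with the position in that build.
Hist1h1c, chr13:23739512-23739527, plus strand: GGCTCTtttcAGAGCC
Hist1h4i, chr13:22040966-22040981, minus strand: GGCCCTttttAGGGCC
Hist1h4h, chr13:23531458-23531473, plus strand: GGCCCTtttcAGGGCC
Hist1h4j, chr13:21735437-21735452, plus strand: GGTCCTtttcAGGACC
H2afx, chr9:44335240-44335255, plus strand: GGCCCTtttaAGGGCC
The form of Hist1h1c was that of each kept H1, H2A, H2B and H3 gene of the clusters in which a loop was found. The kept H4 genes carried the other 3 clustered forms, Hist2h4 that of Hist1h4i, and Hist1h4m and Hist1h4n that of Hist1h4h.

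Of the 25 kept clustered genes, 20 had the loop in an annotated transcript, and in 13 of these the transcript ran more than 100 bases past it. Among the 42 clustered genes left out for low counts, 24 had a loop and 9 ran more than 100 bases past it. The transcript of Hist1h4i, 727 bases long in a single exon, went on for 330 bases after the loop. In Hist1h2bc, Hist2h2be, Hist1h2bq, Hist1h2br and Hist1h4k no loop was found in the annotated transcripts. A poly-A signal (AATAAA, or its variant ATTAAA, in the last 50 bases) was present in 11 of the 25 kept clustered genes, in 6 of the 42 left out and in 8 of the 8 genes outside the clusters. Some transcripts without a loop are short in the annotation, such as Hist1h4k with 312 bases, and Hist1h2bn with 381 among those left out. A loop or signal past an annotated end could not be found, so these counts also depend on how complete the annotation is. H2afx, the variant phosphorylated at DNA breaks, is known for making both kinds of mRNA, and its transcript here held a loop 822 bases before an end with a poly-A signal. In the last 100 bases of all 58797 protein-coding transcripts, histone transcripts included, the loop pattern was found in 0.0510%. The histone genes above were searched over the whole transcript instead. Of the 25 kept clustered genes, 7 had a transcript that ended within 100 bases of the loop.

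The promoters of the 2 clustered members with the smallest p in the comparison below are shown because they differ in the motifs they hold. Each is 250 bases before to 50 after the annotated start, from RefSeq (GRCm38.p6), with matches to TATAAA, to CCAAT and to ATTTGCAT on either strand in capitals. No 2 matches overlapped in any member's promoter.
Hist1h4i, chr13:22041313-22041612, minus strand: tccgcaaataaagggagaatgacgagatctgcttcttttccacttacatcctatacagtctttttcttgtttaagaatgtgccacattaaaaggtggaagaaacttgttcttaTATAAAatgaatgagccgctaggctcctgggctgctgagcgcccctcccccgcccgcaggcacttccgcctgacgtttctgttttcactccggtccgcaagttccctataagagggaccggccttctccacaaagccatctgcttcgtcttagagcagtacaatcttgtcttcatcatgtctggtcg
Hist1h2be, chr13:23585921-23586220, minus strand: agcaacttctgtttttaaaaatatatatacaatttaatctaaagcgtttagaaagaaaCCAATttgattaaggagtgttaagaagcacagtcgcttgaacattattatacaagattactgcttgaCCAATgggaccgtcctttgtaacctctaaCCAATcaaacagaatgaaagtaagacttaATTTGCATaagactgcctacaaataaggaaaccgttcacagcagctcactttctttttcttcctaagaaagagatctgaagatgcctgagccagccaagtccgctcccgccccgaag
Hist1h2be has a further annotated start, with CCAAT and without ATTTGCAT.

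Promoters could be matched for 29 of the 33 members. CCAAT was in the promoter of 16 of 22 clustered genes, against 41.1% of all 27025 genes with a promoter. By class these were 3 of 3 H1, 6 of 6 H2A, 5 of 5 H2B and 2 of 2 H3 genes, and 0 of 6 H4 genes. The promoters of Hist1h2ao and Hist1h2bq overlap on opposite strands, as do those of Hist1h2ap and Hist1h2br, and these stretches are near-identical copies. Those of Hist1h4m and Hist1h4n are near-identical too, so the counts of genes here are not counts of separate promoters. TATAAA was present in 12 of the 22 (15.7% of all genes), 5 of them among the 6 H4 genes. In Hist1h4i, Hist1h4m and Hist1h4n the match ended 131, 122 and 121 bases before the start, in Hist1h4k 10 bases before it, and in Hist1h4j it reached past the start. ATTTGCAT, the octamer known from H2B promoters, was in 4 of the 22 (1.97% of all genes), 2 H2A and 2 H2B genes. These are matches of letters and not sites shown to be bound.

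Levels were compared between genes as CPM per kb of exonic length, averaged over the 20 mice. Exonic length joins all annotated exons of a gene and can exceed its longest transcript. It was 1776 against 1069 bases in H2afz and 2976 against 2514 in H3f3b, so the order of close neighbours depends on the length used. The genes outside the clusters led the order, H3f3b with 44.5 CPM per kb and H2afz with 42.3, followed by H3f3a with 32.1 and H1f0 with 31.4. H3f3a and H3f3b encode the same H3.3 protein, which is laid down independently of replication, H2afz encodes H2A.Z of promoter nucleosomes, and H1f0 the linker histone of resting cells. H2afx reached 20.3 CPM per kb, H1fx 14.2, H2afv (a further H2A.Z gene) 13.2 and H2afy (macroH2A, known from silent chromatin) 9.88.

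Among the clustered genes Hist1h2bc was highest, with 30.4 CPM per kb, close to H1f0. Hist3h2ba followed with 17.7, the linker histone gene Hist1h1c with 10.2, Hist1h2ao with 9.54, Hist1h2ap with 9.39 and Hist2h3c2 with 6.96. The other 19 clustered members lay between 0.0364 and 4.72 CPM per kb, with Hist1h1d, annotated with a transcript of 7425 bases, at the foot. Hist1h4i was at 2.09. The order of H3f3b and H2afz turned between the groups, H2afz being at 45.6 ± 5.90 and H3f3b at 44.6 ± 4.24 CPM per kb in MS (SD, n = 8), and these neighbours did not differ beyond their spread there.

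**Figure D1:**
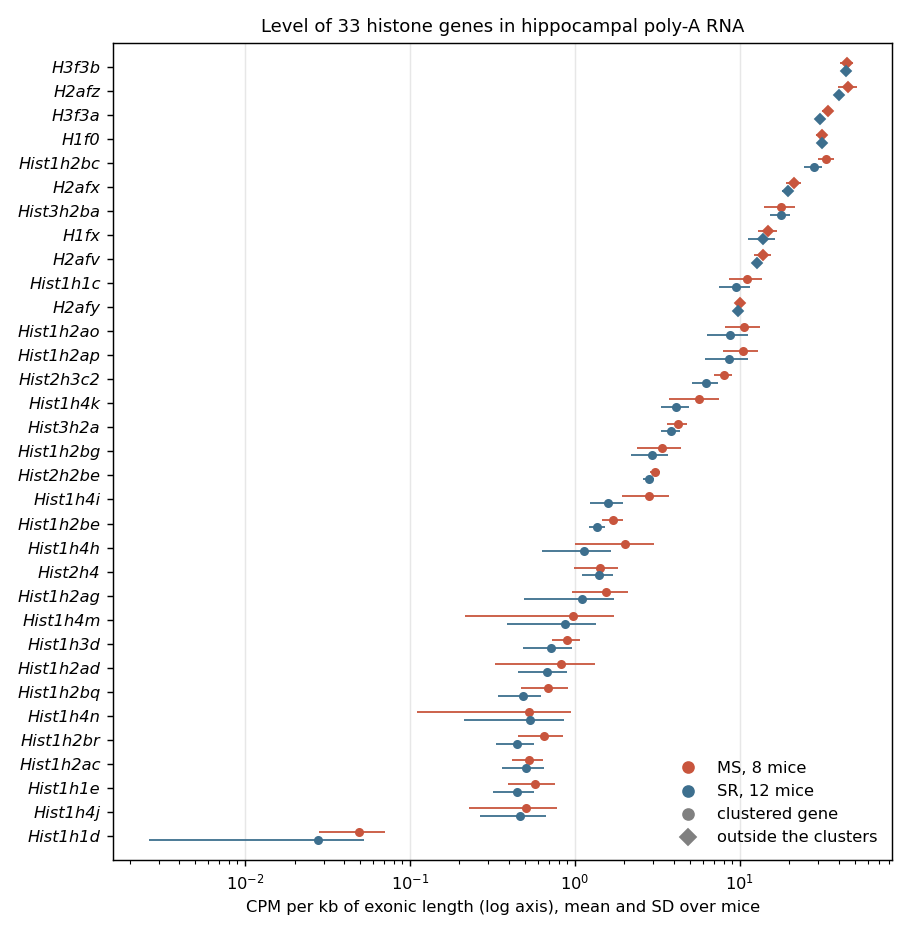
Level of each kept histone gene as CPM per kb of exonic length on a log axis (points: mean; bars: SD over 8 MS or 12 SR mice; circles: clustered genes; diamonds: genes outside the clusters). Genes outside the clusters hold the 4 highest places, followed by Hist1h2bc, and the members span from 44.5 to 0.0364 CPM per kb.

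Just inside the limit of 100 summed counts lay Hist1h4n with 102 and Hist1h1d with 119, and just outside it Hist1h3g with 87, Hist1h2bh with 84 and Hist4h4 with 82. Of the 42 clustered genes left out, 7 had no count in any library, among them Hist2h2aa1, Hist2h2aa2 and Hist2h3c1. For clustered members of low counts, counting error was a large part of the spread. Hist1h4i had 16 to 55 counts per library, and in SR its counting error alone was 19.5% of the mean, with an observed spread over mice of 22.5%.

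Some members could not be told from a neighbouring copy. The H2A genes Hist1h2ao and Hist1h2ap lie on chromosome 13 and share 92.7% and 92.2% of their windows of 100 bases with other genes, and their counts were within 6 of each other in 21 of 21 libraries (sums of 2197 and 2170). The H2B genes Hist1h2bq and Hist1h2br share 94.8% and 86.4%, and their counts differed by at most 3 (sums of 534 and 546). Each of these pairs is counted as 1 gene where a sum or count over members is called one with pairs taken once, a choice made after seeing the data. The H4 genes Hist1h4m and Hist1h4n share 88.1% and 80.7% but differed by up to 13 counts, with sums of 172 and 102. Hist2h3c2 shares 61.6% of its windows with Gm20634, a gene model that spans its copy Hist2h3c1, and Hist1h4k shares 64.3% with other H4 genes. Outside the clusters, H2afz shares 25.7% of its windows with Tmcc1, a protein-coding gene on chromosome 6, and H3f3a shares 20.8%, mostly with the gene model Gm17275. In Hist1h4i 15.1% of windows were shared, and in Hist1h2be 12.1%, mainly with the overlapping gene Hist1h1e. How the counting treated reads that fit several places, and whether it used strand, is not given in the sources used here.

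**Figure D2:**
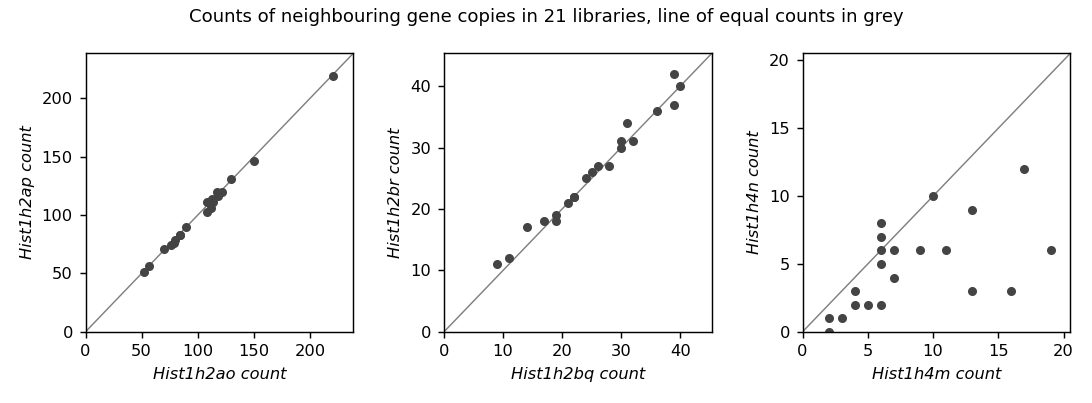
Raw counts of neighbouring histone gene copies against each other (each point 1 of 21 libraries; grey line: equal counts). Hist1h2ao and Hist1h2ap, and Hist1h2bq and Hist1h2br, fall along the line within 6 and 3 counts, while Hist1h4m and Hist1h4n differ by up to 13.

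The comparison of MS with SR asked whether separation early in life left a difference in these mRNAs at 10 weeks. Most histone genes had a somewhat higher mean in MS, the clustered genes more so than those outside the clusters. No single member passed edgeR's test after adjustment over all genes. edgeR's quasi-likelihood test was fitted to all genes that passed its filter on low counts, 28 members among 18146 genes. With an adjusted p under 0.05 it called 0 of the 28 members (0.011% of all genes were called). At an unadjusted p under 0.05, 11 of 28 were higher in MS, against 6.62% of all genes, and 0 were lower, against 4.92%. An adjusted p under 0.2 was reached by 6 of 28, against 1.5% of all genes. The log2 fold change (MS against SR) was above 0 in 27 of 28 members, against 50.3% of all genes. DESeq2's Wald test called 1 member, Hist1h4i, and gave no adjusted p to 11 of the 33. Of the 15351 genes to which it gave an adjusted p, it called 0.775%. Nests had been assigned as wholes and the labels tie no mouse to a nest. The p-values here therefore measure the spread between mice and treat nest mates as independent. If each block of animal numbers is a nest, the units assigned were A, B and C against D, E, F and G, which are fewer than the mice.

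The 20 tested clustered genes had log2 fold changes of 0.01 to 0.82, a median of 0.30, and 20 were above 0, where the median over all genes was 0.0008. With pairs taken once there were 18, all above 0, of which 7 had an unadjusted p under 0.05. The 8 genes outside the clusters had log2 fold changes of -0.0039 to 0.18 and a median of 0.11, with 7 above 0 and 3 at an unadjusted p under 0.05. Clustered members are alike in sequence and some share reads, so they do not count as separate measurements. The filter itself left out 5 clustered members. Of the 20 that passed, 18 reached its limit in at least 8 SR libraries, and these had a median of 0.28 with 18 above 0. Hist1h2ag and Hist1h4h reached it in 7 SR libraries each. With no filter on low counts, 24 of 25 clustered members were above 0, with a median of 0.27.

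**Figure D3:**
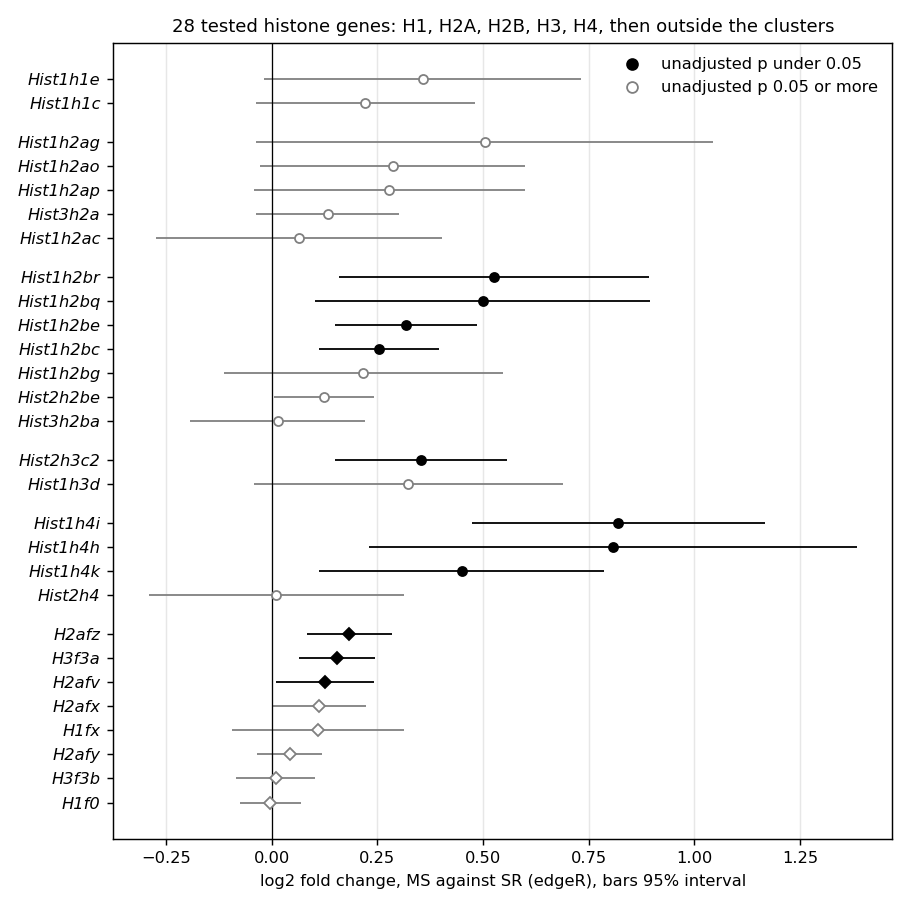
Log2 fold change of MS against SR for the 28 tested members (edgeR; bars: 95% interval from the standard error; filled: unadjusted p under 0.05; circles by class H1, H2A, H2B, H3, H4, then diamonds for genes outside the clusters). Points lie to the right of 0 in 27 of 28 members, up to 0.82 in Hist1h4i, and none had an adjusted p under 0.05.

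The H4 genes, whose product is the same H4 protein from each, held the member with the smallest p. Hist1h4i (H4c9, ENSMUSG00000060639, chr13:22040636-22041362) had a lowest value of 1.09, a median of 2.17 and a highest of 3.01 CPM in MS, and 0.676, 1.15 and 1.68 CPM in SR. The groups overlapped, although 5 of 8 MS mice lay above the highest SR mouse, and A2 (1.09) lay within the SR range. The means were 2.06 ± 0.656 (SD, n = 8) and 1.16 ± 0.261 (SD, n = 12), for a log2 fold change of 0.82 with a standard error of 0.177. The unadjusted p was 1.06e-04 and the adjusted p 0.111 by edgeR. Whether it was called turned with the tool and with 1 mouse. The study used DESeq2 with another adjustment of p-values, independent hypothesis weighting. It lists this gene, as H4c9, among its significant genes, higher in MS. In DESeq2 the adjusted p was 0.0138, and over all alternatives it ranged from 0.0138 to 0.437. Without MS mouse C2, which had 1.38 CPM, edgeR called it, with an adjusted p of 0.0420.

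Of the other tested H4 genes, Hist1h4h had a log2 fold change of 0.81 (edgeR p = 0.0115, adjusted p = 0.289) on 4 to 33 counts per library. Its values were high in A1, A3, C1 and B3, each above every SR mouse, and low in C2 and C3. Hist1h4k had a log2 fold change of 0.45 (edgeR p = 0.0152, adjusted p = 0.315), and Hist2h4 one of 0.01. Over the 4 tested H4 genes the median was 0.63. Summed over all 7 kept H4 genes, MS mice had 8.08 ± 1.52 CPM and SR mice 6.21 ± 0.527, a ratio of 1.30. The lowest MS sum was 6.77 and the highest SR sum 6.91.

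The H2B class held most of the clustered histone signal. Hist1h2bc (chr13:23684199-23692908) had 33.8, 38.3 and 48.1 CPM as lowest, median and highest in MS, and 27.2, 31.3 and 40.8 in SR. All 8 MS mice were above the SR median, and 7 of 12 SR mice were below the lowest MS mouse. The log2 fold change was 0.25 with a standard error of 0.0730 (edgeR p = 0.00203, adjusted p = 0.189). Hist1h2be (chr13:23583670-23621124) had 5.63, 7.66 and 9.08 CPM in MS and 4.97, 6.08 and 7.34 CPM in SR. In MS its lowest mouse was A1, and 4 of 8 were above the highest SR mouse. Its log2 fold change was 0.32 with a standard error of 0.0859 (edgeR p = 0.00113, adjusted p = 0.161). Hist1h2bq and Hist1h2br, which are 1 measurement, had log2 fold changes of 0.50 and 0.53.

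The remaining H2B genes differed less. Hist3h2ba had 7.40, 11.2 and 13.9 CPM in MS and 8.99, 10.6 and 13.3 in SR, so that the MS mice surrounded the SR mice, and its log2 fold change of 0.01 had a standard error of 0.106. Hist2h2be had a log2 fold change of 0.12 and Hist1h2bg one of 0.22. The median over the 7 H2B genes was 0.25, and their sum was 68.9 ± 7.09 CPM in MS and 59.7 ± 5.14 in SR with pairs taken once.

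The main H3 gene of the clusters in these libraries was Hist2h3c2 (chr3:96238108-96239127). It had 6.14, 8.33 and 9.40 CPM in MS and 4.41, 6.13 and 8.26 CPM in SR. All 8 MS mice were above the SR median and 4 above every SR mouse. The log2 fold change was 0.35 with a standard error of 0.104 (edgeR p = 0.00244, adjusted p = 0.191). Gm20634, with which it shares sequence, had one of 0.59 (edgeR adjusted p = 0.134), and Hist1h3d, with less signal, one of 0.32. The sum of the clustered H3 genes was 9.29 ± 1.16 CPM in MS and 7.29 ± 1.14 in SR.

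Among the H2A and H1 genes of the clusters none had an unadjusted p under 0.05. Hist1h2ao had 2.85, 5.23 and 6.74 CPM in MS and 2.42, 4.15 and 7.16 in SR, with 7 of 8 MS mice above the SR median and 0 above the highest SR mouse. Its log2 fold change was 0.29 with a standard error of 0.160, and that of Hist1h2ap, the same measurement, 0.28. Hist3h2a, with the highest CPM of the H2A genes of the clusters, had means of 9.04 CPM in MS and 8.25 in SR and a log2 fold change of 0.13 with a standard error of 0.0862. Over the 5 tested H2A genes the median was 0.28. Hist1h1c, a linker histone gene, had 11.6, 16.8 and 25.1 CPM in MS and 10.8, 14.0 and 19.8 in SR, and a log2 fold change of 0.22 with a standard error of 0.132. Mouse C1 alone lay above the SR range. Hist1h1e had a log2 fold change of 0.36.

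The 5 members that did not pass the filter had 0 to 19 counts per library. Their means in MS and SR were 0.392 and 0.349 CPM for Hist1h4m, 0.471 and 0.387 for Hist1h2ad, and 0.392 and 0.363 for Hist1h4j. Hist1h4n had 0.228 and 0.230 CPM, and Hist1h1d 0.368 and 0.205. With no filter on low counts, edgeR's adjusted p lay between 0.542 (Hist1h1d) and 0.962 (Hist1h4n), and the standard errors of their log2 fold changes between 0.312 and 0.437.

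Outside the clusters, the genes of H2A.Z and H3.3 gave the smallest p. H2afz (chr3:137864487-137866922) had 69.5, 78.9 and 101 CPM in MS and 67.3, 71.2 and 75.5 in SR. The SR mice were tightly grouped, and 5 of 8 MS mice lay above all of them, C1 farthest, while B2, C2 and C3 lay within the SR range. The log2 fold change was 0.18 with a standard error of 0.0515 (edgeR p = 0.00156, adjusted p = 0.174). Without mice C1, C2 and C3 the adjusted p was 0.0170, so that edgeR called it there. H2afv, the second H2A.Z gene, had 19.7, 22.2 and 28.8 CPM in MS and 18.3, 21 and 23.6 in SR, and a log2 fold change of 0.13 (edgeR p = 0.0427, adjusted p = 0.414).

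H3f3a and H3f3b, which encode 1 protein, gave different values. H3f3a had 107, 117 and 137 CPM in MS and 97.7, 108 and 118 in SR, with 7 of 8 MS mice above the SR median. Its log2 fold change was 0.15 with a standard error of 0.0458 (edgeR p = 0.00253, adjusted p = 0.191). H3f3b had 124, 128 and 163 CPM in MS and 117, 132 and 143 in SR. Apart from C1, its MS mice lay within the SR range, and 2 of 8 were above the SR median. Its log2 fold change was 0.01 with a 95% interval of -0.08 to 0.10, and the difference between the 2 genes was not tested.

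The remaining variants showed small differences. H2afx, at a log2 fold change of 0.11 with an SE of 0.0571, had 23.7, 30.5 and 32.4 CPM in MS and 23.5, 27.2 and 30.6 in SR. H1fx, the H1.10 gene, had 13.4, 18.9 and 20.5 CPM in MS and 13.4, 15.5 and 21.9 in SR, and its log2 fold change was 0.11 with an SE of 0.104. H2afy had 64.1, 66.7 and 77.7 CPM in MS and 61.8, 66.1 and 71.5 in SR, with an SE of 0.0390 on a log2 fold change of 0.04. For H2afx 4 of 8 MS mice lay above the highest SR mouse, for H2afy 1 and for H1fx 0. H1f0 had the log2 fold change closest to 0, with 59.8, 62.7 and 71.4 CPM in MS and 61.3, 65.2 and 66.9 in SR, a value of -0.0039 and a 95% interval of -0.08 to 0.07.

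**Figure D4:**
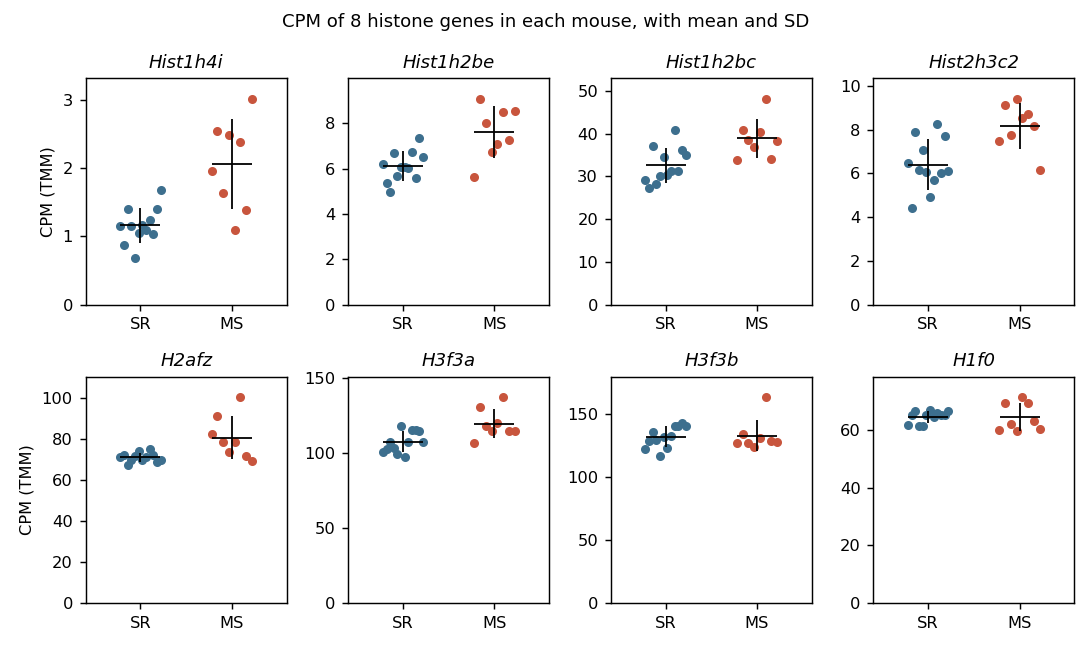
CPM of 8 histone genes in each mouse (points: mice; horizontal line and bar: mean and SD; 12 SR and 8 MS mice; each axis starts at 0). Hist1h4i, Hist1h2be, Hist1h2bc, Hist2h3c2, H2afz and H3f3a have higher MS means with overlapping groups, and H3f3b and H1f0 have means that lie together.

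No member had groups that did not overlap, in either direction (0.00551% of all genes in each). Summed over the clustered members with pairs taken once, MS mice had 105.0 to 144 CPM, with a median of 121 and a mean of 121.8 ± 12.8 (SD, n = 8). SR mice had 89.2 to 119 CPM, with a median of 101 and a mean of 103.8 ± 9.34 (SD, n = 12), a ratio of 1.17. The MS sum was lowest in A1 and highest in C1 and A3, and A1, B2, C2 and C3 lay within the SR range. The genes outside the clusters summed to 537 ± 41.3 CPM in MS and 507 ± 20.9 in SR, a ratio of 1.06. Their medians were 524 CPM in MS and 509 in SR, and mouse C1 stood highest at 629, with A3 next in MS at 557. The clustered genes made up 18.5% ± 0.815 of the histone CPM in MS and 17.0% ± 0.922 in SR. As each sum is a total over the tissue, more cells with such mRNAs and more mRNA per cell cannot be told apart.

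The clustered sum was also averaged within each block of 3 mice, called a set. Set means of the clustered sum were 120 CPM in A (without A2), 122 in B and 123 in C, and 101 in D, 102 in E, 105 in F and 107 in G. By single genes, the 3 MS set means all lay above the 4 SR set means in 11 of 28 members, against 5.63% of all genes, and all below in 0, against 4.51%. The 11 were Hist1h1c, Hist1h2bc, Hist1h2be, Hist1h2bq, Hist1h2br, Hist1h4i, Hist1h4k, Hist2h3c2, H2afx, H2afz and H3f3a. Counted per mouse, the 18 clustered genes with pairs taken once lay above their SR median in 10 (A1) to 17 (A3) cases in MS mice and in 4 (D2) to 13 (F3 and G2) cases in SR mice.

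**Figure D5:**
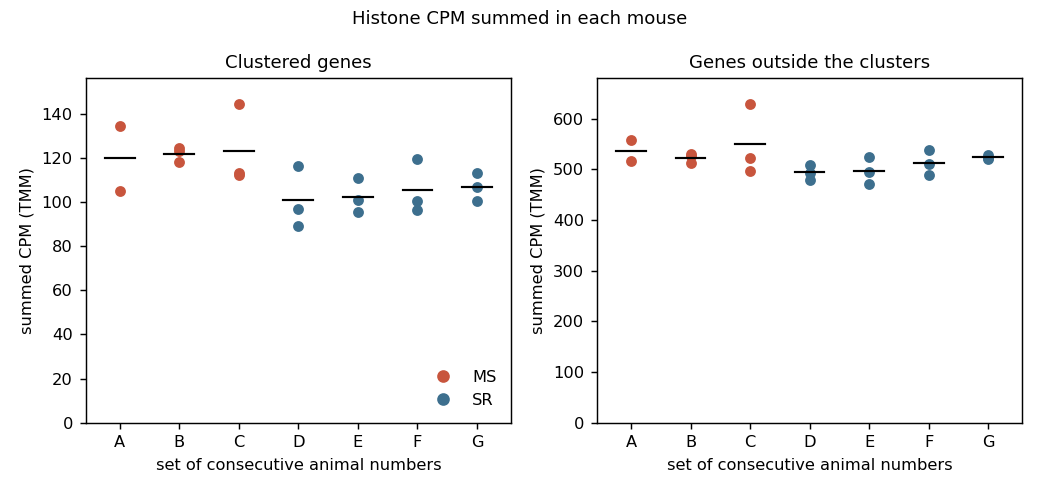
Summed CPM of the clustered members (left) and of the members outside the clusters (right) in each mouse, by block of animal numbers (red: MS, 8 mice; blue: SR, 12 mice; black line: set mean; axes start at 0). Clustered set means lie at 120 to 123 CPM in MS and at 101 to 107 in SR, and single mice of the groups overlap.

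Within the lower range of animal numbers (5 MS and 9 SR mice), 18 of 21 clustered genes tested there had a log2 fold change above 0, with a median of 0.36. At an unadjusted p under 0.05, 8 members were higher in MS, against 9.53% of all genes. Within the higher range (3 MS and 3 SR mice) 20 of 21 were above 0, with a median of 0.26, and 0 members had an unadjusted p under 0.05, against 2.34% of all genes. Hist1h4i had log2 fold changes of 0.83 and 0.71, Hist1h2bc of 0.25 and 0.24, and H2afz of 0.18 and 0.20. The difference of the effect between the ranges was tested as an interaction. edgeR called 0 members and 0 of all 18146 genes, with 0 members at an unadjusted p under 0.05 (8.67% of all genes). DESeq2 called 0 members and 18 of the 13865 genes to which it gave an adjusted p. At an unadjusted p under 0.05 it had 1 member (4.97% of all genes), the sparse Hist1h1d. DESeq2 gave no adjusted p to 16 of the 33 members there, Hist1h1d and Hist1h4i included, so these could not be called. Hist1h4h, at 1.11 and 0.14, had the smallest edgeR p of the interaction, 0.137.

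Clustered histone mRNAs are short, so transcript length was looked at over all genes. The length trend of a library, the rank correlation of its log2 CPM (relative to the mean of libraries) with exonic length, was -0.05 ± 0.137 in MS and 0.02 ± 0.0673 in SR, a difference of -0.07 (exact permutation test over mice, two-sided, p = 0.146). Mouse C1, with the highest clustered sum, had the lowest trend, -0.30, and A3, the next in sum, had -0.15. Without C3, which had a trend of 0.17, the difference was -0.10 (exact permutation p = 0.0250). Among genes under 1000 bases the median log2 fold change was 0.02, and in the 8 clustered members of that length it was 0.37. From 1000 to under 2000 bases the medians were 0.04 over all genes and 0.29 in 6 clustered members, and from 2000 to under 3000 bases 0.02 and 0.13 in 5. The clustered medians were thus lower in the longer of these bins. From 3000 bases the only clustered member tested was Hist1h2be, at 0.32, so the values did not fall steadily with length. Hist1h2ao and Hist1h2ap, and Hist1h2bq and Hist1h2br, each count as separate genes in these bins. With the trend as a term in the edgeR model, the clustered median was 0.21 with 18 of 20 above 0, and the median outside the clusters 0.05. Hist1h4i was at 0.81 in that fit and H2afz at 0.11, and the call stayed at 0 members.

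Marker lists of other tissue and cell types had 0 genes at an unadjusted p under 0.05. The 6 choroid plexus markers, a tissue beside the hippocampus, were all higher in MS, with a median log2 fold change of 0.91, 0 called, and sums of 52.3 to 4167 CPM in MS and 28.4 to 4494 in SR. With their summed level as a term, chosen after seeing the data, the clustered median was 0.27, the median outside the clusters 0.13, and Hist1h4i at 0.75, while Hist1h4h was at 0.56. The 7 markers of striatal neurons had a median of 0.48, and with these as a term the clustered median was 0.29. Erythroid markers had a median of 0.25 with 4 of 5 above 0, and their part in the histone values was not tested. Markers of dentate granule cells had a median of -0.11 with 1 of 5 above 0, and those of CA pyramidal neurons one of -0.05 with 0 of 6 above 0. Markers of oligodendrocytes, microglia and endothelial cells had medians of 0.01, 0.05 and 0.04. RNAs that have no poly-A tail had low counts in both groups. Of 16 such genes, among them the 7SK RNA gene Rn7sk and small nuclear and nucleolar RNAs, 8 had no count in the 20 mice, and their summed level was 0.537 to 1.30 CPM in MS and 0.497 to 1.93 in SR. That sum is of the size of single sparse members, such as Hist1h4h with means of 0.947 CPM in MS and 0.537 in SR. Whether histone mRNA without a tail entered the libraries was not tested. RNA quality scores were not analysed here.

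Genes that make, trim and place histones differed little. Of 21 tested genes for the 3′ end processing and decay of histone mRNA, 12 had a log2 fold change above 0, with a median of 0.0020, 2 at an unadjusted p under 0.05 higher and 1 lower in MS, and 0 called. Npat, which drives the transcription of clustered histone genes, had a log2 fold change of -0.12 (edgeR p = 0.00991, adjusted p = 0.285), and Eri1, an exonuclease that trims histone mRNA, one of 0.15 (edgeR p = 0.0230, adjusted p = 0.349). Of 26 tested histone chaperones and deposition factors, 11 were above 0, with a median of -0.0099 and 0 called. The 2 with an unadjusted p under 0.05 were lower in MS, Cabin1 of the HIRA complex, which deposits H3.3, at -0.10 (edgeR adjusted p = 0.288) and Srcap, the remodeller that inserts H2A.Z, at -0.19 (edgeR adjusted p = 0.382). Of 19 tested genes of S phase and cell division, 11 were above 0, with a median of 0.0096 and 0 called. Cenpf, a kinetochore gene, had a log2 fold change of 0.42 (edgeR p = 0.00874, adjusted p = 0.269), and the next by p, the replication helicase gene Mcm3, one of -0.12 (edgeR adjusted p = 0.692). Summed, the S phase genes lay at 121 to 140 CPM in MS and 123 to 133 in SR.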

How the data were processed

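Poly-A RNA of mouse hippocampus was sequenced with 1 library per mouse (9 MS, 12 SR; NEBNext Ultra II Directional kit, paired-end). The authors aligned reads with STAR 2.7.3a to GRCm38, used featureCounts with Ensembl gene models, and deposited raw counts per gene and library with no normalization or filter. Columns that belong to no sample numbered 0. Here filterByExpr (minimum count 10), TMM scaling and the robust quasi-likelihood test of edgeR 4.0.16 (R 4.3.3) were applied, with Benjamini-Hochberg adjustment over all genes tested and a threshold of 0.05. A standard error (SE) is the absolute log2 fold change over the square root of F, and 95% intervals are normal ones from the SE. Total counts were 17276810 to 30449055, and genes of few counts carry the largest counting error. Symbols and transcripts are those of GENCODE M21, and 100-base windows of each transcript were compared with all transcripts on both strands.

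Members and gene lists were chosen with earlier results of these data known. Named in full are members outside the clusters, the 6 clustered ones of highest CPM per kb, those of smallest p, and Hist1h4i, which the study lists. Members of unadjusted p under 0.05, of near-identical copies or of low counts were named in addition after their values were seen. Alternatives were DESeq2 1.42.0, limma-voom (limma 3.58.1) with the number set as a block, other filters, size factors and terms, all 21 libraries, and each library or set left out. Summed marker levels as terms, pairs of copies taken once and the count over members that reach the filter's limit in at least 8 SR libraries were added after seeing the data. The computations were tested on simulated counts of 18146 genes, of which 200 were changed between the groups. At an adjusted p under 0.05, edgeR recovered 168 of them and DESeq2 172. Unchanged genes called numbered 13 with edgeR and 25 with DESeq2.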

Additional observations from a re-analysis of the deposited data

Results flagged for a closer look

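Single MS mice lay apart from the other 7 in 4 of the 28 members tested, by Dixon's test at the 95% level, which chance meets in about 1 of 20 groups. Mouse C1 was far above the others for H2afv (28.8 CPM), H3f3b (163 CPM) and H2afy (77.7 CPM). The same mouse had the lowest length trend, -0.30, and its part in these values was not tested. Mouse A1 was far above the others for Hist1h2ag (1.36 CPM).

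Library A2 was in no comparison. Its summed striatal markers were at 1969 CPM, against at most 680 in the other mice. Its summed CA pyramidal markers were at 543 CPM, against at least 897 in the others, and the part of tissue make-up in its histone values was not tested. A2 lay above the highest SR mouse in 5 members. These were H2afz (80.7 CPM), H2afv (28.1 CPM), Hist1h2ao (7.28 CPM), its near-identical copy Hist1h2ap (7.22 CPM) and Hist1h4h (1.12 CPM). In 3 members it lay below the lowest SR mouse, H1f0 (56.4 CPM against 61.3), H3f3b (116 against 117) and H2afy (61.1 against 61.8). Hist1h4i was at 1.09 CPM in A2, where SR mice had 0.676 to 1.68.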

How the results depend on the processing

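Over 38 alternative fits, the clustered median log2 fold change stayed above 0, from 0.21 with the length trend as a term to 0.36 without set C or set E, and the median outside the clusters between 0.05 and 0.15. Between 85.7% and 100% of the clustered members tested were above 0, and 9 to 16 members were higher at an unadjusted p under 0.05, with 0 lower. With pairs taken once the clustered median was 0.30. The number of members called was 1 with DESeq2 and 0 to 1 with a library or set left out. The 2 of these fits with a call were those without C2 (Hist1h4i) and without set C (H2afz), and the cause was not tested. Over all genes, edgeR called 2, 109 without C2, 109 without C3 and 340 without set C, DESeq2 called 119, edgeR with no filter 1, and limma-voom and summed sets 0 each. Values near 0 changed sign. H1f0 was at 0.0040 with counts summed within sets and at 0.0049 with striatal markers as a term, and ran from -0.0293 to 0.0083 with a library or set left out. H3f3b was at -0.0117 over all 21 libraries, at -0.0069 with the number range as a term, at -0.0396 with the length trend and at -0.0044 with choroid plexus markers as a term, and ran from -0.0392 to 0.0435 with a library or set left out. Hist3h2ba was at -0.10 with the length trend as a term and ran from -0.0436 to 0.0754 with a library or set left out. The difference in length trend ran from -0.10 (exact permutation p = 0.0250, without C3) to -0.0356 (exact permutation p = 0.361, without C1). No paired analysis was possible because the labels carry no replicate numbers that MS and SR share. Members under about 20 counts per library are limited by counting error.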
